A study of Bos taurus with 26 samples.

Results

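Endometrial RNA of parity 4 cows was compared between the libraries of batch 1 and those of batches 2 and 3. The study sequenced polyadenylated RNA of endometrium and corpus luteum from Holstein cows bred for high (Fert+) or low (Fert-) fertility, all on day 13 of the oestrous cycle. Its 26 libraries comprised 14 of endometrium, taken as a biopsy of the uterine horn on the side of the corpus luteum, and 12 of corpus luteum. Of the 14 endometrium libraries, 6 were labelled parity 4. On the batch 1 side were Endo_L_6 and Endo_L_14 (both Fert-) and Endo_H_10 (Fert+). On the other side were Endo_L_3 (Fert-) and Endo_H_5 (Fert+) of batch 2 and Endo_H_12 (Fert+) of batch 3. The labels do not say what a batch was, whether an extraction, a library preparation or a sequencing run, nor whether 2 libraries of a tissue can stem from 1 cow, so that the p-values measure no more than the spread between these libraries. Batch and everything else that the 3 batch 1 libraries shared therefore cannot be told apart.

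Day 13 falls in the luteal phase, when progesterone from the corpus luteum acts on the endometrium. The uterine glands and surface epithelium then secrete histotroph, the mixture of proteins, lipids and sugars on which an early conceptus depends before it attaches. An endometrial biopsy holds luminal and glandular epithelium, stroma, vessels and immune cells, and its transcript levels reflect both the make-up of the piece taken and the state of each cell type. In such bulk samples more cells of a type and more RNA per cell cannot be told apart.

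The libraries were selected on measured values: the first principal component of the 14 endometrium libraries, computed from 14243 gene IDs and holding 26.6% of the variance. On this axis Endo_L_6, Endo_H_10 and Endo_L_14 scored 33.7, 54.2 and 55.7. The 3 parity 4 libraries of batches 2 and 3 scored between -7.96 and -3.36. Thus the 3 batch 1 libraries formed one end of the axis, and no other endometrium library scored above -0.270. The other end was held by Endo_H_1 at -53.3, followed by Endo_H_4 at -24.6 and Endo_H_2 at -17.8, all Fert+ of parity 3. The batch 1 libraries of parity 2, Endo_H_7 and Endo_H_13 (both Fert+), scored -1.41 and -12.6, on the side of the batch 2 and 3 libraries. Because the contrast below was chosen by this axis, its fold changes and calls describe the 6 libraries and serve as evidence for nothing further. The axis was computed from all 14 endometrium libraries, so the levels of the other 8 on the IDs that differ were also partly fixed by the choice and are given as a description.

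The depth of the groups overlapped. Total counts ran from 11749831 to 16580572 in the batch 1 libraries and from 9627378 to 16066685 in the others (difference 1167000, exact two-sided permutation p = 0.7, where 3 against 3 libraries can give no p below 0.1). The number of IDs with a count averaged 17070 ± 130.2 (SD, n = 3) in batch 1 and 16970 ± 208.6 (SD, n = 3) in the others (exact permutation p = 0.5). The 10 most abundant IDs took 8.56% ± 1.60 (SD, n = 3) and 8.71% ± 0.158 (SD, n = 3) of the counts (exact permutation p = 1). Leaving out 1 library turned the sign of each of the 3 differences. No pair of libraries within a group agreed within sampling noise, the lowest chi-square per degree of freedom over 37 pairs being 16.5. The deposited IDs carry no gene symbols, and 0 of 24616 matched the symbol table available here. Markers of endometrium and of its cell types therefore could not be looked up, and members are given by their IDs.

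Most of the IDs called in the parity 4 contrast were higher in batch 1. With the fertility line as a covariate, edgeR's quasi-likelihood test called 101 of 14220 IDs at a Benjamini-Hochberg adjusted p under 0.05, or 0.71%, of which 99 were higher and 2 lower in batch 1. The split was less uneven at an unadjusted p under 0.05, with 801 IDs higher and 602 lower. Most IDs differed little: the absolute log2 fold change had a median of 0.19 and its standard error (SE) a median of 0.22, and 861 IDs were at least 2-fold apart. The IDs that differed were described by a rule without a test, namely that the 3 batch 1 values all lay above or all below the other 3 values and that the fitted difference was at least 2-fold. The rule gave 353 IDs higher in batch 1, 2.48% of those tested, and 202 IDs lower in batch 1, or 1.42%. Without Endo_L_6 the same rule gave 466 higher and 570 lower IDs, so that the excess of higher IDs turned. These shares belong to the contrast that chose the libraries, and nothing is read from them. The calls rested on single libraries as well, since leaving out Endo_H_10, Endo_L_14, Endo_H_5 or Endo_H_12 brought them to 0 (858, 1151, 1171 and 1339 IDs at an unadjusted p under 0.05), while 147 were called without Endo_L_6 and 52 without Endo_L_3. DESeq2 called 457 IDs, 333 higher and 124 lower.

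**Figure D1:**
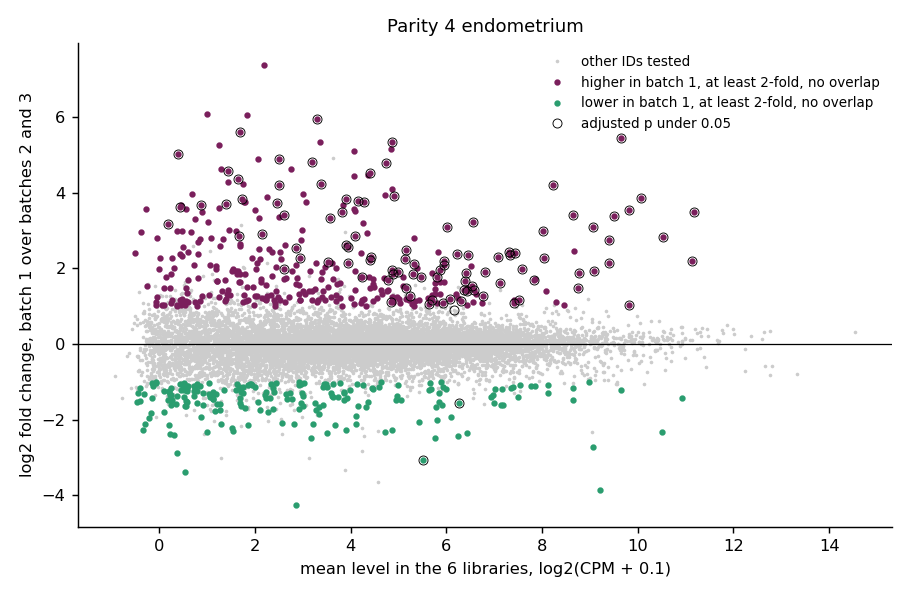
Log2 fold change of batch 1 over batches 2 and 3 in parity 4 endometrium (vertical axis) against the mean level in the 6 libraries as log2(CPM + 0.1) (horizontal axis). Each point is 1 of 14220 IDs; purple and green mark the 353 and 202 IDs at least 2-fold apart without overlap, rings the 101 IDs at an adjusted p under 0.05, and 99 of the rings lie above 0.

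The 353 higher IDs reached larger differences than the 202 lower ones. Among the higher IDs the median log2 difference was 1.80 and the largest 7.39, with 149 IDs at least 4-fold and 73 at least 8-fold apart. Among the lower IDs the median absolute log2 difference was 1.38 and the largest 4.25, with 31 IDs at least 4-fold and 4 at least 8-fold apart. Just inside the 2-fold limit the absolute log2 differences were 1.00 in the higher and 1.01 in the lower list, and just outside it they were 0.993 and 0.994. Levels are given as CPM, a count relative to the size of its library scaled by trimmed mean of M values (TMM), which are not corrected for transcript length and so are compared only between libraries. The median higher ID stood at 14.3 CPM in batch 1 and 3.18 CPM in the other libraries, and the median lower ID at 2.80 CPM in batch 1 and 7.29 CPM in the others. None of the 353 was without a count in all 3 of the batch 2 and 3 libraries, although an ID may have had few counts there.

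The higher IDs were spread over all bands of abundance from 1 CPM upward. In the group with the higher level, 150 of the 353 lay at 1 to 10 CPM, 148 at 10 to 100 CPM, 45 at 100 to 1000 CPM and 10 at 1000 CPM or more. As a share of all IDs tested in these bands, they made up 3.90% of 3851, 1.82% of 8129, 2.36% of 1905 and 7.58% of 132. The band of an ID was set by its group with the higher level, so the higher IDs entered the upper bands through batch 1. These shares are therefore partly fixed by the rule, and nothing is read from them. Of the 203 IDs tested below 1 CPM, 0 were in the higher and 5 in the lower list. The 10 IDs at 1000 CPM or more had batch 1 means of 1090 to 4280 CPM and log2 fold changes of 1.04 to 5.46 (median 3.12). Each of the 10 was called by edgeR (Benjamini-Hochberg adjusted p of 0.0162 to 0.0352). Together they took 1.63% of all counts in Endo_L_6, 2.41% in Endo_H_10 and 2.06% in Endo_L_14, against 0.186% to 0.496% in the other 11 endometrium libraries. These 10 IDs thus held a large part of the reads by which the batch 1 libraries exceeded the others in the list as a whole. The 4 lower IDs of this abundance had log2 fold changes of -3.87 to -1.21 and were not called (adjusted p of 0.322 to 0.489 in edgeR).

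Summed over each list, the share of the library's counts showed the same separation in every library. The 353 higher IDs took 3.11% of the counts in Endo_L_6, 4.54% in Endo_H_10 and 4.15% in Endo_L_14. They took 0.870% in Endo_L_3, 0.747% in Endo_H_5 and 0.942% in Endo_H_12. The groups averaged 3.94% ± 0.741 (SD, n = 3) and 0.853% ± 0.0984 (SD, n = 3) and could not overlap, given how the IDs were picked. The 8 endometrium libraries outside the contrast, which entered the axis that chose it, were all close to the lower level: Endo_H_7 and Endo_H_13, which share the batch number 1, stood at 1.08% and 1.16%, and the other 6 between 0.569% and 1.14% (median 0.826%). The 202 lower IDs took 0.705%, 0.511% and 0.522% of the counts in Endo_L_6, Endo_H_10 and Endo_L_14, and 1.58%, 1.44% and 2.14% in Endo_L_3, Endo_H_5 and Endo_H_12. In Endo_H_7 and Endo_H_13 they took 1.88% and 3.54%, and in the other 6 libraries 1.49% to 8.79% (median 2.29%), so that all 8 lay on the side of batches 2 and 3 and none reached the batch 1 range. Among these 6 the highest, 8.79%, belonged to Endo_H_1 (Fert+, batch 4, parity 3), and the next, Endo_H_4, stood at 2.74%. A large part of these sums came from the 4 lower IDs of 1000 CPM or more. They took 6.13% of the counts in Endo_H_1, 2.18% in Endo_H_13 and 0.962% in Endo_H_7. ID by ID, all 8 libraries fell short of the batch 1 range for 62 of the 202.

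**Figure D2:**
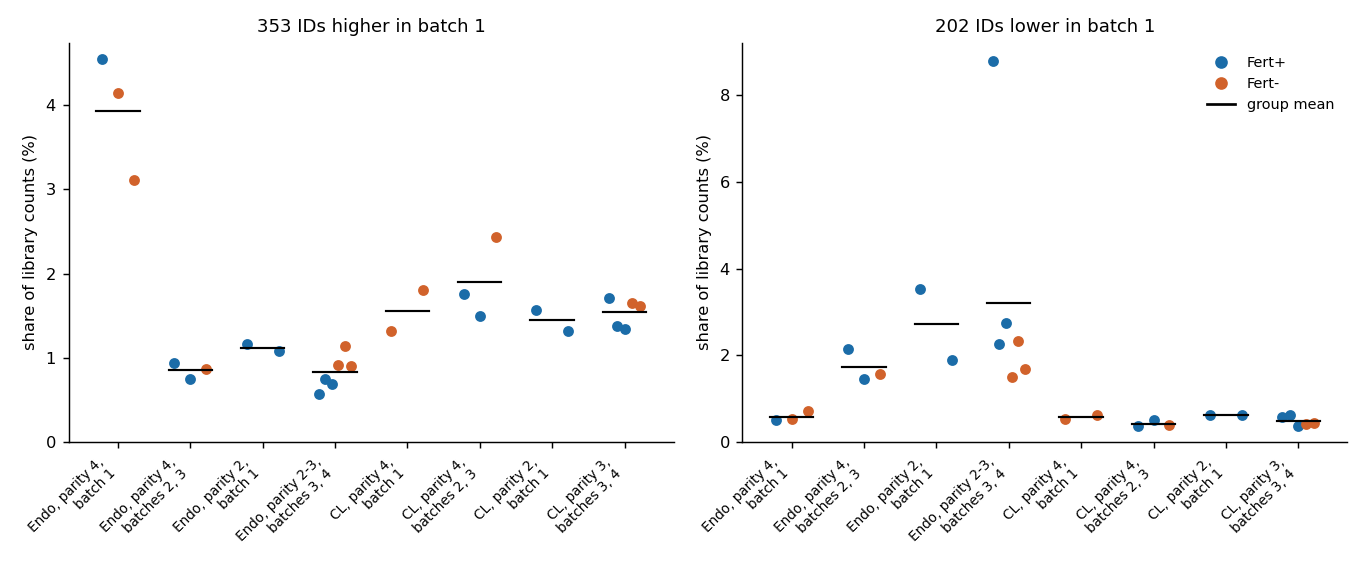
Share of each library's counts (vertical axes, %) taken by the 353 IDs higher (left) and the 202 IDs lower (right) in batch 1 of parity 4 endometrium, by tissue (Endo, endometrium; CL, corpus luteum), parity and batch. Points are libraries coloured by line and bars are group means; the 3 libraries that lie at 3.11% to 4.54% on the left are the parity 4 batch 1 endometrium, while all others lie at 2.435% or less.

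In each direction, the 2 non-overlapping IDs of smallest p serve as examples. ENSBTAG00000013347 stood at 136.3 CPM in Endo_L_6, 114.4 CPM in Endo_H_10 and 123.9 CPM in Endo_L_14. In Endo_L_3, Endo_H_5 and Endo_H_12 it stood at 21.9, 25.8 and 22.97 CPM. All 3 batch 1 libraries were high and close together, whatever their line. The group means were 124.9 CPM ± 10.99 (SD, n = 3) and 23.5 CPM ± 2.02 (SD, n = 3), a log2 fold change of 2.40 (SE 0.145, edgeR adjusted p = 0.0162). Endo_H_7 and Endo_H_13 were at 27.8 and 23.2 CPM and the other 6 endometrium libraries at 12.5 to 31.2 CPM, so that the 3 libraries stood apart from all 11 others.

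ENSBTAG00000011752 was at 99.2, 107.4 and 92.8 CPM in Endo_L_6, Endo_H_10 and Endo_L_14, and at 22.9, 22.5 and 27.1 CPM in Endo_L_3, Endo_H_5 and Endo_H_12. The means of 99.8 CPM ± 7.29 (SD, n = 3) and 24.2 CPM ± 2.57 (SD, n = 3) gave a log2 fold change of 2.09 (SE 0.133, edgeR adjusted p = 0.0162). Again the parity 2 batch 1 libraries lay low: Endo_H_7 was at 33.6 CPM and Endo_H_13 at 32.6 CPM, just above the 19.4 to 31.4 CPM of the other 6. The calls of ENSBTAG00000013347 and ENSBTAG00000011752 were lost without any one of Endo_H_10, Endo_L_14, Endo_H_5 or Endo_H_12 (adjusted p of 0.0518 to 0.253), with log2 fold changes of 2.03 to 2.57 in these fits.

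The 2 IDs called as lower differed in how the remaining libraries behaved. ENSBTAG00000047121 was at 8.04, 9.26 and 14.4 CPM in Endo_L_6, Endo_H_10 and Endo_L_14, and at 122.4, 37.0 and 81.0 CPM in Endo_L_3, Endo_H_5 and Endo_H_12 (log2 fold change -3.07, SE 0.412, edgeR adjusted p = 0.0459). Endo_H_7 and Endo_H_13, at 58.1 and 91.1 CPM, and the other 6, at 29.9 to 806.1 CPM, were all above the batch 1 libraries of parity 4. ENSBTAG00000047547 was at 39.6, 29.8 and 64.8 CPM in the batch 1 libraries and at 157.2, 77.7 and 91.5 CPM in the other parity 4 libraries (log2 fold change -1.55, SE 0.215, edgeR adjusted p = 0.0459). Here the other 6 endometrium libraries, at 15.4 to 43.9 CPM, lay at or below the batch 1 level, so that the batch 2 and 3 libraries of parity 4 were the high ones. Endo_H_7 was low at 20.02 CPM and Endo_H_13 high at 85.4 CPM. Neither ENSBTAG00000047121 nor ENSBTAG00000047547 kept its call in limma-voom (adjusted p = 0.0717 and 0.0547), and leaving out single libraries ended the call of ENSBTAG00000047121 in each of the 6 cases and that of ENSBTAG00000047547 in all but the one without Endo_L_6 (adjusted p of 0.0596 to 0.464). ENSBTAG00000047547 also lost its call with no line term (adjusted p = 0.247).

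**Figure D3:**
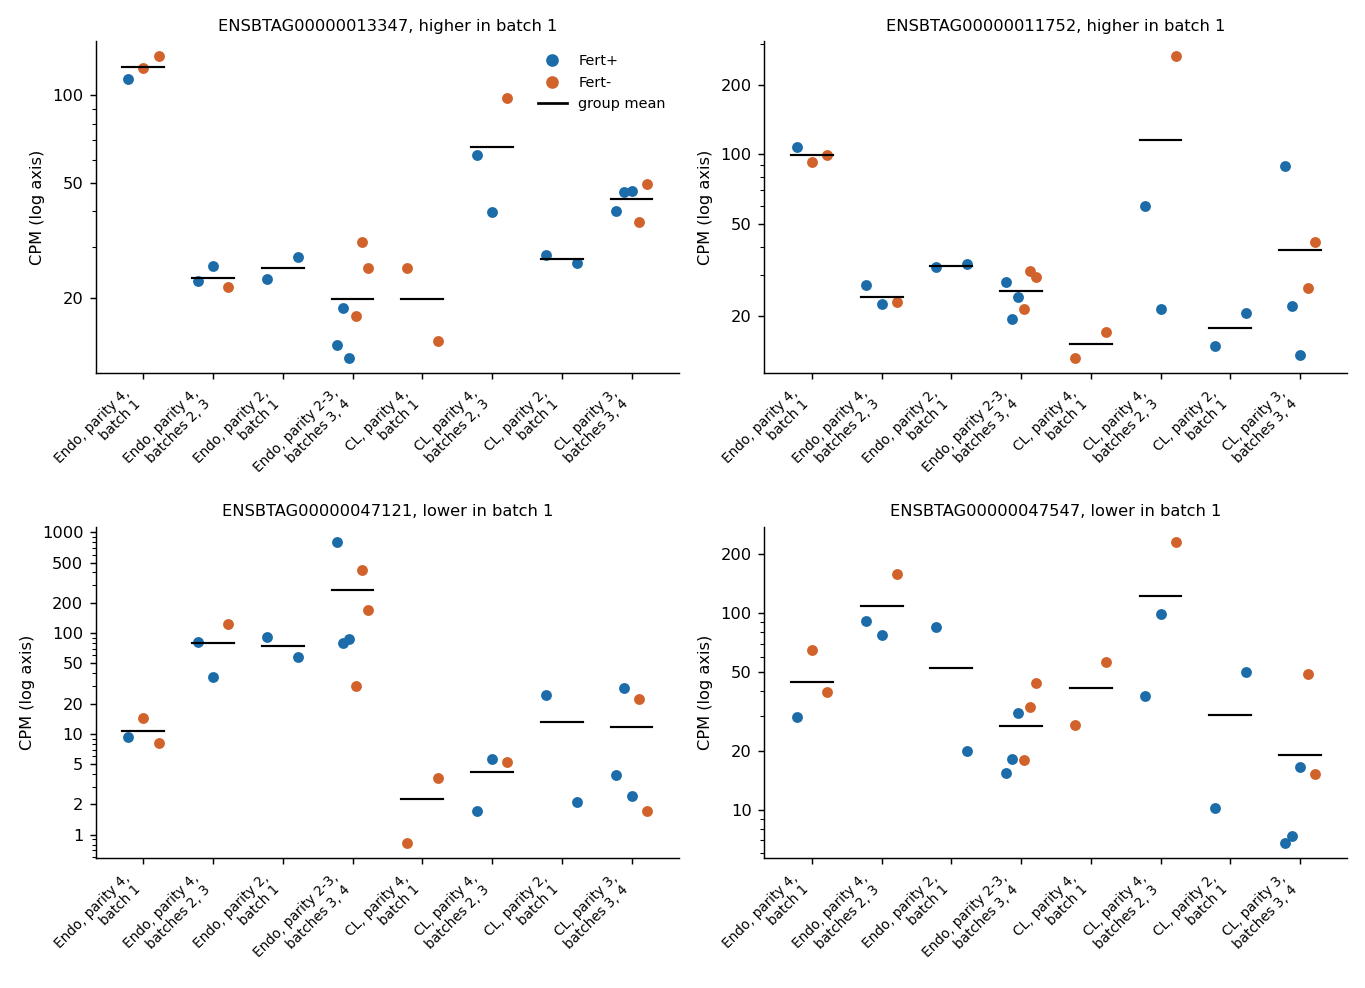
CPM (vertical axes, log scale) of the 2 higher and 2 lower IDs with the smallest p in parity 4 endometrium, in all 26 libraries by tissue, parity and batch; points are libraries coloured by line and bars are group means. In the upper panels the 3 batch 1 parity 4 endometrium libraries lie above all 11 other endometrium libraries, and in the lower right panel the parity 2 and 3 libraries of batches 3 and 4 lie at or below the batch 1 level.

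The listed IDs also differed within each fertility line, which the rule that picked them largely imposes. Each line had a single library on one side. Within Fert-, where Endo_L_6 and Endo_L_14 were set against Endo_L_3, the median log2 difference of the 353 higher IDs was 1.44, and within Fert+, where Endo_H_10 was set against Endo_H_5 and Endo_H_12, it was 1.76. All 353 had the same direction in both lines, which absence of overlap imposes, and 237 were at least 2-fold apart in both. For the 202 lower IDs the medians were -1.08 in Fert- and -1.27 in Fert+, and 75 were at least 2-fold apart in both. Of the batch 1 libraries, Endo_L_6 lay nearest to the other group for 215 of the 353 higher and 114 of the 202 lower IDs. Endo_H_12, the only parity 4 library of batch 3, lay beyond both batch 2 libraries in the direction of batch 1 for 120 of the 353 and 44 of the 202. Some library of that group has to lie nearest to batch 1 for each ID, so nothing about batch 3 is read from these counts.

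The parity 2 libraries of batch 1 were then placed between the parity 4 groups. They differ from the parity 4 batch 1 libraries in parity, and batch and parity cannot be told apart by their place. For each ID a position was computed on the log2 CPM scale, with 0 at the mean of the batch 2 and 3 libraries of parity 4, 1 at the mean of the batch 1 libraries of parity 4 and 0.5 as the midpoint. Over the 353 higher IDs the median position was 0.178 in Endo_H_7 and 0.0829 in Endo_H_13, against 0.859, 1.12 and 1.01 in Endo_L_6, Endo_H_10 and Endo_L_14. Endo_H_7 passed the midpoint for 25.5% of these IDs and Endo_H_13 for 17.9%. Among the 6 libraries of other batches the shares were 26.1% in Endo_L_8 (Fert-, batch 4, parity 2) and 4.82% to 8.78% in the remaining 5, all of parity 3. Endo_L_8, the third parity 2 library of the tissue, also had the highest median position of the 8, at 0.334. Thus the parity 2 libraries, of batch 1 or not, were the 3 that passed the midpoint most often in the higher list. The median position did not follow this split, as Endo_L_9 (Fert-, batch 3, parity 3) stood at 0.0925, above Endo_H_13. For the 202 lower IDs the shares past the midpoint were 23.3% in Endo_H_7 and 24.3% in Endo_H_13, within the 11.9% to 24.3% of the other 6 libraries, and the median positions were 0.0867 and 0.0536.

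A minority of the listed IDs were past the midpoint in both parity 2 batch 1 libraries. No other pair of libraries was counted in this way, so whether these 2 coincide more or less than others was not tested. Of the 353 higher IDs, 27 (7.65%) were past the midpoint in both Endo_H_7 and Endo_H_13, 63 in Endo_H_7 alone, 36 in Endo_H_13 alone and 227 in neither. In 72 both lay beyond the batch 2 and 3 mean on the far side from batch 1. Of the 202 lower IDs, 19 (9.41%) were past the midpoint in both, 28 in Endo_H_7 alone, 30 in Endo_H_13 alone and 125 in neither, with 51 on the far side in both. By the looser criterion of lying beyond the nearest batch 2 or 3 library, both counted as moved for 89 (25.2%) of the higher and 43 (21.3%) of the lower IDs. Both were within or beyond the range of the batch 1 libraries themselves for 17 and 15 IDs. All 8 endometrium libraries of parity 2 and 3 fell short of the batch 1 range for 250 (70.8%) of the higher IDs but for 62 (30.7%) of the lower IDs. Since the 3 libraries were picked as one end of an axis through all 14, that the others fell short for many higher IDs follows in part from the choice.

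**Figure D4:**
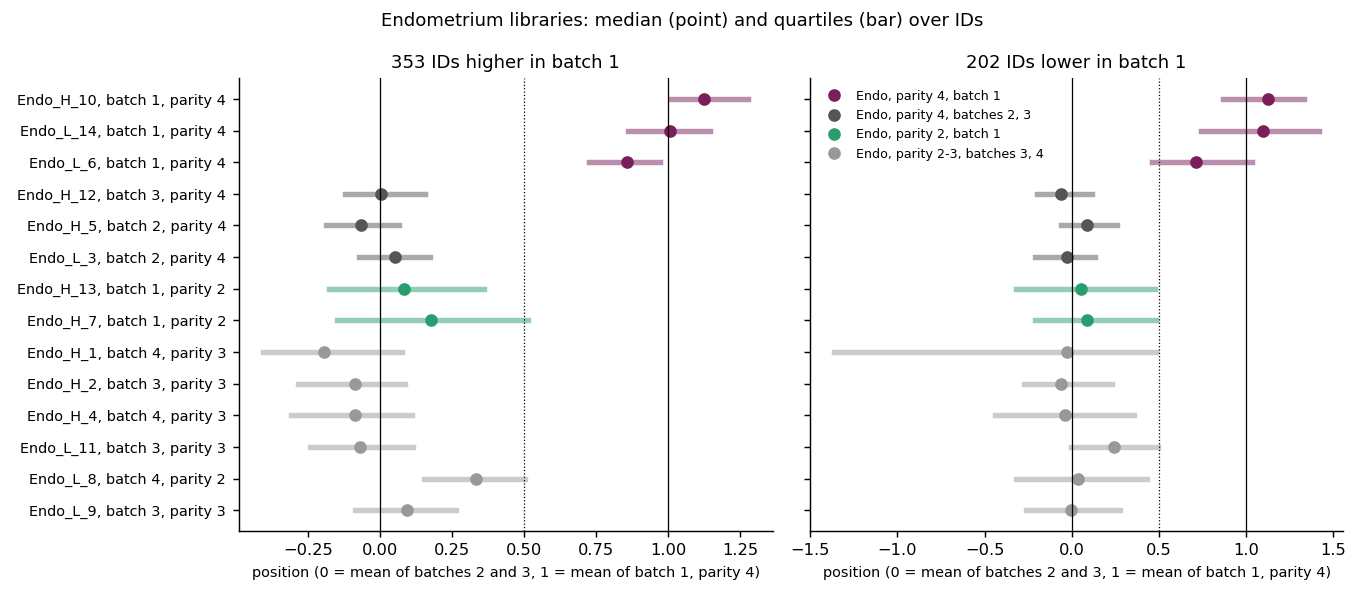
Position of each endometrium library (horizontal axes; 0, mean of the batch 2 and 3 libraries of parity 4; 1, mean of the batch 1 libraries of parity 4; dotted line, midpoint) over the 353 higher (left) and 202 lower IDs (right). Points are medians and bars quartiles over IDs; Endo_H_7 and Endo_H_13 have medians of 0.178 and 0.0829 on the left, close to 0, and Endo_L_8 has 0.334.

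The same batch number was then compared in the other 8 endometrium libraries, as Endo_H_7 and Endo_H_13 against the 6 libraries of batches 3 and 4. These 8 were not in the parity 4 fit but entered the axis that chose it, so the counts of listed IDs below are no independent test. As both are Fert+, the line-adjusted contrast sets them against Endo_H_1, Endo_H_2 and Endo_H_4, and as both are of parity 2 while those 3 are of parity 3, batch and parity cannot be told apart in it. Over the 353 higher IDs these 3 references had median positions of -0.1945, -0.0878 and -0.0863, the lowest of the 8 libraries. Endo_H_7 and Endo_H_13 stood at 0.178 and 0.0829, so part of their distance came from the references. edgeR called 0 of 14696 IDs (0% at a Benjamini-Hochberg adjusted p under 0.05, smallest adjusted p 0.0873), and 2272 IDs lay at an unadjusted p under 0.05. limma-voom called 0 and DESeq2 638. Without any 1 of the 6 libraries of batches 3 and 4, edgeR called 0. Without Endo_H_7 calls did appear, but Endo_H_13 was then the only batch 1 library. Of the 353 higher IDs, 311 were tested here: 240 (77.2%) were higher in Endo_H_7 and Endo_H_13, against 48.3% of all IDs tested, with a median log2 fold change of 0.49. At an unadjusted p under 0.05, 78 (25.1%) were higher, where all IDs gave 8.42%, and 3 were lower. Of the 202 lower IDs, 201 were tested: 130 (64.7%) were lower, against 51.7% of all IDs, with a median of -0.49, and 29 (14.4%) were lower at an unadjusted p under 0.05, where all IDs gave 7.04%. With parity added to the model, an alternative chosen after seeing the data that sets the pair against Endo_L_8 with the line difference taken off, 156 of the 311 higher IDs were higher (median 0.03) and 123 of the 201 lower IDs were lower (median -0.35). In this fit 49.3% of all IDs were higher. Its only reference of parity 2 is Endo_L_8, which lay apart from the other libraries of batches 3 and 4 on the higher list. The line difference taken off came from Endo_H_1, Endo_H_2 and Endo_H_4 against Endo_L_9 and Endo_L_11. All 10 higher IDs with at least 1000 CPM in batch 1 of parity 4 were higher in the line-adjusted contrast (median log2 fold change 1.07).

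The IDs that led this second contrast were not those that led the first. ENSBTAG00000013369 was at 93.9 CPM in Endo_H_7 and 66.2 CPM in Endo_H_13, against 22.8 to 38.4 CPM in the 6 libraries of batches 3 and 4 (log2 fold change 1.61, SE 0.171, edgeR adjusted p = 0.0873), but its log2 fold change in parity 4 endometrium was -0.14. ENSBTAG00000001740 was at 37.2 and 41.3 CPM against 15.6 to 21.5 CPM (1.29, SE 0.14, edgeR adjusted p = 0.0873), and at -0.61 in the parity 4 contrast. ENSBTAG00000007578 was lower in both contrasts, at 56.4 and 50.3 CPM in Endo_H_7 and Endo_H_13 against 73.9 to 117.5 CPM (log2 fold change -1.04, SE 0.137, edgeR adjusted p = 0.101). In parity 4 endometrium ENSBTAG00000007578 was at 61.6, 66.4 and 41.7 CPM in Endo_L_6, Endo_H_10 and Endo_L_14 and at 85.7, 92.8 and 70.9 CPM in Endo_L_3, Endo_H_5 and Endo_H_12 (-0.52, edgeR adjusted p = 0.506). ENSBTAG00000034302 was at 0.989 and 0.745 CPM against 2.75 to 7.62 CPM (-2.93, SE 0.395, edgeR adjusted p = 0.101). None of these 4 IDs passed the threshold.

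Corpus luteum of parity 4 offered the same batch contrast in the other tissue, with CL_L_20 and CL_L_28 (both Fert-) of batch 1 against CL_L_17 (Fert-), CL_H_19 and CL_H_23 (both Fert+) of batches 2 and 3. With the line in the model, this contrast is CL_L_20 and CL_L_28 against the single library CL_L_17. edgeR called 7 of 13579 IDs (0.0516% at a Benjamini-Hochberg adjusted p under 0.05), all lower in batch 1, and 0 without the line term. Of the 353 IDs higher in batch 1 endometrium, 279 were tested in corpus luteum, and 112 were higher and 167 (59.9%) lower there, against 49.5% of all IDs lower, with a median log2 fold change of -0.36. At an unadjusted p under 0.05, 16 (5.73%) were higher and 63 (22.6%) lower, where all IDs gave 4.76% higher and 3.92% lower. Of the 10 higher IDs with at least 1000 CPM in batch 1 of parity 4 endometrium, 0 were higher in corpus luteum (median log2 fold change -1.86). Without the line term, an alternative chosen after seeing the data, 100 of the 279 were higher (median -0.31), where 44.2% of all IDs were. Of the 202 lower IDs, 135 were tested in corpus luteum, 75 (55.6%) being higher and 60 lower (median 0.10), against 50.5% of all IDs higher. In share of counts, the 353 IDs took 1.31% in CL_L_20 and 1.80% in CL_L_28, against 2.435% in CL_L_17, 1.76% in CL_H_19 and 1.499% in CL_H_23. CL_L_17 thus had the highest share of all 12 luteal libraries. Of the batch 1 libraries, CL_L_20 had the lowest share of the 12 and CL_L_28 the highest after CL_L_17. The labels do not tie the libraries of the tissues to a cow, and whether these luteal libraries came from the same cows as the endometrium is not known here.

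**Figure D5:**
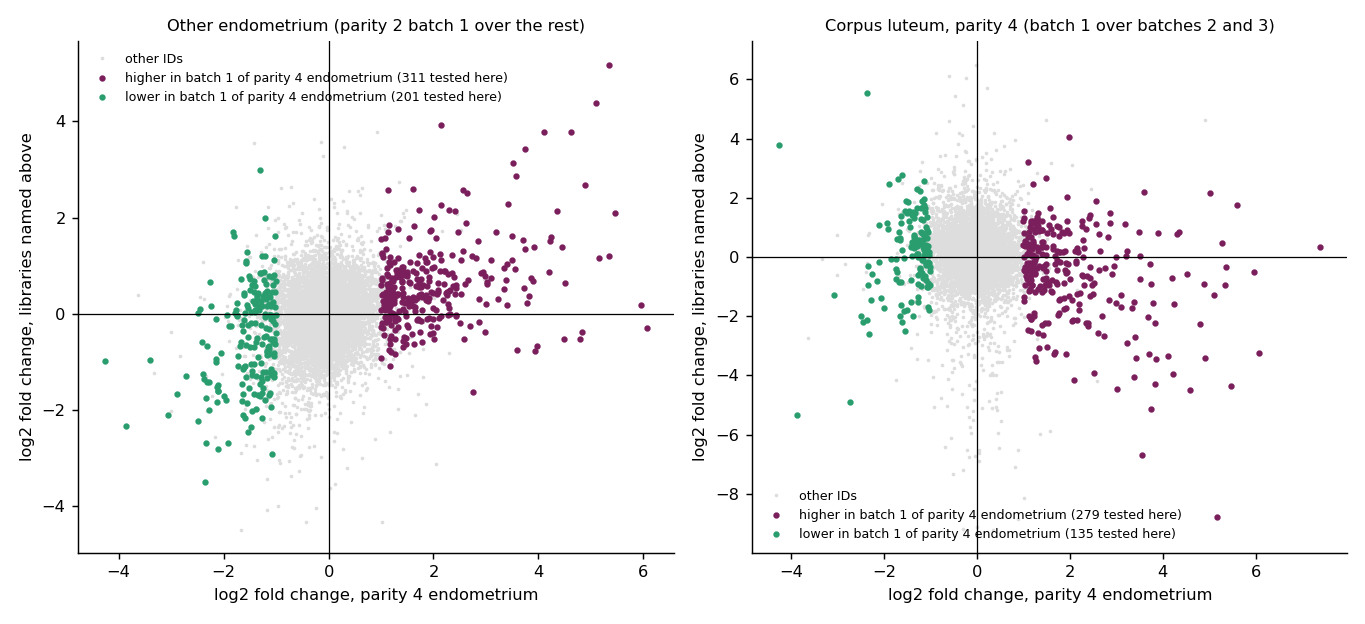
Log2 fold change of Endo_H_7 and Endo_H_13 over the other endometrium of parity 2 and 3 (left) and of batch 1 over batches 2 and 3 in parity 4 corpus luteum (right), on the vertical axes, against the log2 fold change in parity 4 endometrium on the horizontal axes. Each point is an ID; of the purple IDs 240 of 311 lie above 0 on the left and 112 of 279 on the right.

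Single IDs showed the reliance on CL_L_17. ENSBTAG00000018531, which belongs to the 202 lower IDs, was at 28.4, 124.0 and 229.8 CPM in Endo_L_6, Endo_H_10 and Endo_L_14 and at 636.6, 496.1 and 1688 CPM in Endo_L_3, Endo_H_5 and Endo_H_12 (log2 fold change -2.72, edgeR adjusted p = 0.416). Endo_H_7 and Endo_H_13 had 1142 and 1861 CPM of ENSBTAG00000018531, and the other 6 libraries 258.5 to 7036 CPM. In corpus luteum it was at 4.15 and 6.93 CPM in CL_L_20 and CL_L_28, and at 163.1 CPM in CL_L_17, 9.71 CPM in CL_H_19 and 10.8 CPM in CL_H_23 (log2 fold change -4.91, SE 0.369, edgeR adjusted p = 0.0378, or 0.899 with no line term). It was one of 2 lower IDs called lower in corpus luteum. ENSBTAG00000014655 was at 0.178 and 0.0900 CPM in CL_L_20 and CL_L_28, at 23.6 CPM in CL_L_17 and at 0.928 and 0.557 CPM in CL_H_19 and CL_H_23 (-7.32, SE 0.65, edgeR adjusted p = 0.0656). The highest value again belonged to CL_L_17. ENSBTAG00000045966 (24.5 and 22.6 CPM in CL_L_20 and CL_L_28, 1.75, 5.50 and 8.76 CPM in the others) and ENSBTAG00000019954 (213.3 and 198.0 CPM, against 33.5, 77.0 and 118.3 CPM) had log2 fold changes of 3.73 (SE 0.503) and 2.60 (SE 0.373) and did not pass (edgeR adjusted p = 0.247 for each).

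The example IDs of parity 4 endometrium were followed into corpus luteum as well. ENSBTAG00000013347 was at 25.4 and 14.3 CPM in CL_L_20 and CL_L_28 and at 97.7, 62.3 and 39.6 CPM in CL_L_17, CL_H_19 and CL_H_23 (log2 fold change -2.31, edgeR adjusted p = 0.339). ENSBTAG00000011752 was at 13.2 and 17.1 CPM against 265.4, 59.8 and 21.4 CPM (-4.15, edgeR adjusted p = 0.247). For both, the batch 1 libraries were the high ones of parity 4 in endometrium and the low ones of parity 4 in corpus luteum, without overlap. The luteal fold changes rest on CL_L_17, which had the highest value of each ID. In the luteal libraries of parity 2 and 3, ENSBTAG00000013347 was at 26.5 to 49.65 CPM, above the batch 1 values of parity 4. ENSBTAG00000011752 was at 13.6 to 88.85 CPM there, which overlaps them. The difference between the tissues was not tested.

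The 2 lists also differed in where their IDs are expressed. As a description, the 8 endometrium libraries of parity 2 and 3 were compared with the 12 corpus luteum libraries. Of the 353 higher IDs, 67 (19%) were at least 4-fold higher in corpus luteum and 29 (8.22%) at least 4-fold higher in endometrium, with a median log2 ratio of endometrium to corpus luteum of -0.52. Of the 202 lower IDs, 98 (48.5%) were at least 4-fold higher in endometrium and 5 (2.48%) in corpus luteum, with a median log2 ratio of 1.87. Among all IDs tested in parity 4 endometrium these shares were 9.10% for endometrium and 3.99% for corpus luteum, and the median log2 ratio was 0.0047. The ratio leaves out the 3 batch 1 libraries of parity 4, where the higher IDs are high: there they took 3.11% to 4.54% of the counts, above the 1.31% to 2.435% of the corpus luteum libraries, so the direction for the higher list depends on which endometrium libraries are used. The 202 lower IDs were picked as low in those same libraries, where they took 0.511% to 0.705% of the counts. In the corpus luteum libraries they took 0.362% to 0.633%, and in the 8 endometrium libraries used 1.49% to 8.79%. The ratio of the lower list therefore depends on the libraries used as well. The part of cell make-up in these ratios was not tested.

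Correlations between IDs were also computed in the libraries outside the contrast. Over the 8 endometrium libraries of parity 2 and 3 the mean Pearson's r between pairs of higher IDs was 0.226, and over the 6 of them from batches 3 and 4 it was 0.3. For pairs of lower IDs these means were 0.0591 and 0.0727, and for pairs of all IDs tested 0.00205 and 0.000817. Over the 12 corpus luteum libraries the mean was 0.0741 for the 279 higher IDs and 0.0606 for the 135 lower IDs that could be used there. For all IDs tested it was 0.000546. These values describe few libraries, and the IDs of a pair share library and depth. The 8 endometrium libraries also entered the axis that chose the contrast, along which IDs that separate its end vary together by construction.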

How the data were processed

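Libraries were prepared with the TruSeq v2 kit, which keeps no strand information, per the labels' protocols. The submitters' processing notes list build UMD3.1 and the tools STAR 2.3.0 and featureCounts beside Trim Galore, FastQC 0.10.0 and CASAVA 1.9. For the annotation release and the counting options, nothing is given in the sources used here. Values of genes that overlap, lie antisense or have near-identical copies are therefore uncertain. The authors deposited unnormalised read counts of 24616 gene IDs per library, with totals of 9627378 to 18008417, and these were used as deposited. The libraries, the IDs and the tests were chosen with earlier results of these data known.

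Fits used R 4.3.3 and edgeR 4.0.16: filterByExpr by group, trimmed mean of M values (TMM) scaling, a robust quasi-likelihood F test with line as covariate, and Benjamini-Hochberg adjustment over all IDs tested. The script was tested on simulated counts. SE is the log2 fold change divided by the root of F. CPM values use one TMM scale per tissue, and log2 CPM a prior count of 2. The ratios of endometrium to corpus luteum instead use one TMM scale over all 26 libraries, with a small constant added to each mean. IDs named are, per fit, the 2 in each direction with the smallest p among IDs without overlap whose higher group averages at least 1 CPM, because gene symbols could not be matched. The summed shares of listed IDs, planned for the exact permutation test, are given without p, since those IDs were picked on the same libraries. Alternatives were RLE and upper-quartile scaling, other low-count filters, fits without line, with parity or of all 14 endometrium libraries, batch 2 alone, DESeq2 1.42.0, voom in limma 3.58.1, an adjusted p under 0.10, other limits on the lists, and leaving out each library.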

Additional observations from a re-analysis of the deposited data

Results flagged for a closer look

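In 5 of 14 groups of values, 1 library lay far from the rest, judged by its distance to the next value as a part of the range (Dixon's criterion). Chance alone does this in about 1 in 20 groups where the values are independent and of one kind. The 14 groups share libraries and IDs and mix lines and, in endometrium, parities. The 5 are therefore not set against that rate. In endometrium Endo_H_1 the top 10 IDs made up 14.19% of all counts, while the next library of its group stood at 9.769%. In the same library the 202 lower IDs took 8.786% of the counts, the next being 2.743%. Endo_L_8 passed the midpoint for 26.06% of the 353 higher IDs, where the next of the 6 libraries of batches 3 and 4 did so for 8.782%. Endo_L_11 had a median position of 0.2448 over the 202 lower IDs, and the next library was at 0.03749. CL_L_27 had 12792912 counts, and the next luteal library of parity 3 had 17209398.

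For 3 of the named IDs all batch 1 libraries of parity 4 moved one way in endometrium and the opposite way in corpus luteum; this difference between tissues was not tested. The log2 fold changes in corpus luteum and endometrium were -2.31 and 2.40 for ENSBTAG00000013347, -4.15 and 2.09 for ENSBTAG00000011752, and 1.29 and -0.518 for ENSBTAG00000007578. With line in the model, those in corpus luteum rest on the single reference library CL_L_17.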

How the results depend on the processing

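The 101 calls in parity 4 endometrium became 158 with no line term, 163 in one fit of all 14 endometrium libraries and 0 against batch 2 alone. The fit against batch 2 alone is the same as that without Endo_H_12. The calls became 457 in DESeq2 and 189 at an adjusted p under 0.10, and with each library left out they ran from 0 to 147. They stayed within 1.5 times (85 to 149) in the other scalings, filters and limma-voom. The 555 listed IDs became 909 with no low-count filter, 1037 at 1.5-fold, 180 at 4-fold and 101 with adjusted p in place of the fold (676 to 1036 with a library left out, where fewer libraries make non-overlap easier). Both parity 2 batch 1 libraries were past the midpoint for 8.29% of the 555, or 23.8% past the nearest library and 5% at 4-fold (5.31% to 14.7% with a library left out). The listed direction held for 72.3% in other endometrium (82.6% at 4-fold, and, chosen after seeing the data, 54.5% with parity added and 72.9% without Endo_L_8) and 41.5% in corpus luteum (36.7% at 4-fold). Other endometrium gave 0 calls, or 1 with no line term, 638 in DESeq2 and 3 at an adjusted p under 0.10 (0 to 525 with a library left out). Corpus luteum gave 7, or 0 with no line term or in limma-voom, 222 with no filter, 32 with a stricter one and 213 in DESeq2 (0 to 258 with a library left out, 113 without CL_L_20); without CL_L_17 line and batch could not be separated. The difference in totals turned to -142600 without Endo_L_14 and -415400 without Endo_L_3 (up to 2804000), that in IDs with a count to -6.667 without Endo_L_3 (up to 200.3), and that in the top 10 share to 0.4605 without Endo_H_10 and 0.144 without Endo_L_14 (down to -1.055). The summed shares kept their direction, at 2.777 to 3.494 and -1.277 to -0.9297 percentage points. The cause of these changes was not tested. Of the named IDs' alternative values 105 kept their call or lack of it, 35 lost it, 19 gained it and 0 reversed. In this tally the fit against batch 2 alone enters a second time as that without Endo_H_12. No paired analysis was possible because no replicate number occurs in more than one group.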
